A study of Musculus with 2 samples.

Results

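Interferon-high macrophages were the macrophages of mouse subcutaneous adipose tissue that carried 15 or more summed unique molecular identifiers (UMIs, each counting 1 captured RNA molecule) of Rsad2, Ifit1 and Ifit3. There were 739 such cells, 246 in the LPCAT3-AKO library and 493 in the control library, among 6543 macrophages and 24090 kept cells in all. Kept cells had at least 500 detected genes and no more than 10% mitochondrial UMIs, and a macrophage was a kept cell with 10 or more summed UMIs of the complement genes C1qa, C1qb and C1qc, 1 or more of the growth factor receptor gene Csf1r and fewer than 10 of the fibroblast gene Dcn. The remaining 2570 LPCAT3-AKO and 3234 control macrophages, all below 15 UMIs of the 3 genes, were the comparison throughout. The members were thus selected on measured values, the UMIs of these marker genes and of the 3 interferon-stimulated genes.

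The study sequenced single cells of the stromal vascular fraction (SVF), the cells left after collagenase digestion of subcutaneous white adipose tissue (sWAT) and removal of floating fat cells, from mice labelled LPCAT3 knockout (LPCAT3-AKO) and WT (control). LPCAT3 is an enzyme that inserts polyunsaturated fatty acids into membrane phosphatidylcholine. Each genotype had 1 library, so the spread between animals could not be measured, no p-value is given, and every interval below is a 95% interval that covers counting error only. Age is given as 5 weeks with the samples and as 2 months with the series, whose text also calls the animals CD-fed. How many mice were pooled in a library, the driver of the deletion and the exons removed were not stated in the labels. Lpcat3 itself was read at 24.04 CPM (UMIs per 1000000) in interferon-high and 23.3 CPM in other macrophages of the LPCAT3-AKO library, against 19.8 and 22.7 CPM in the same cells of the control library, and a 3′ read of the transcript need not lie in the deleted part.

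Type I interferons bind the receptor pair IFNAR1 and IFNAR2, whose kinases JAK1 and TYK2 activate transcription factors, among them STAT2 and IRF9, that switch on interferon-stimulated genes. The products include proteins that block viral replication, sensors of foreign nucleic acid, chemokines and brakes that shut the signal down. Resident macrophages of fat clear dead cells, store and release iron and present antigen, and a small interferon-marked population is a common finding among tissue macrophages.

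The 3 genes of the rule were unevenly represented. Rsad2, which encodes the antiviral enzyme viperin, gave 62.6% of their summed UMIs in LPCAT3-AKO and 64.9% in control interferon-high macrophages, and every one of these cells carried it. Ifit1 was found in 93.5% and Ifit3 in 91.9% of them in LPCAT3-AKO, and in 97.8% and 94.7% in control. Both encode RNA-binding proteins that block translation of viral messages. The median cell held 23 UMIs of the 3 genes in LPCAT3-AKO and 30 in control, and the highest cell held 140 in LPCAT3-AKO and 372 in control. Levels were also read just inside and just outside the threshold. Rsad2 is part of the count that sets these groups, so a small step in it follows from their choice. Cmpk2 was not used by the rule. The 59 LPCAT3-AKO cells with 15 to 17 UMIs had 726 CPM of Rsad2 and 89.8 CPM of Cmpk2, whereas the 95 cells with 12 to 14 UMIs had 577 and 94.5 CPM. In the control library the 94 cells just inside had 906 CPM of Rsad2 and 135 CPM of Cmpk2, and the 127 cells just outside had 741 and 116 CPM.

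The cells were macrophages by genes that the rule did not use. Adgre1, which encodes F4/80, was read at 411 CPM in interferon-high and 402 CPM in other macrophages of the LPCAT3-AKO library, and at 360.0 against 369.9 CPM in the control library. Lyve1, a marker of vessel-associated resident macrophages, stood at 1984 against 1345 CPM in LPCAT3-AKO and 2046 against 1838 CPM in control, and the folate receptor gene Folr2 at 1439 against 1251 CPM and 1434 against 1264 CPM. With every cell thinned to 4000 UMIs, 85.1% of LPCAT3-AKO and 88.2% of control interferon-high macrophages had a Lyve1 UMI, against 70.2% and 79.2% of the other macrophages and 8.03% and 8.92% of fibroblasts. Of the 5 monocyte genes at 20 CPM, 1 in LPCAT3-AKO and 2 in control passed the size rule given below, all of them higher, and the list summed to 2535 against 2176 CPM and 1994 against 1668 CPM. The gene of both libraries was Plac8, which is also on the interferon lists. Gsr was called in control alone and lay on the lower side in LPCAT3-AKO. A Ly6c2 UMI was found in 4.88% against 6.03% of cells in LPCAT3-AKO and 1.42% against 1.95% in control. T cell markers summed to 14.5 against 20.1 CPM in LPCAT3-AKO and 8.77 against 18.7 CPM in control, with 2 and 3 of 10 at 0 UMIs in the interferon-high cells. Natural killer cell markers summed to 4.92 against 6.098 CPM and 9.40 against 17.7 CPM, with 6 and 3 of 10 at 0.

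Depth differed between the groups and moved with the state. Interferon-high macrophages had a median of 13554.5 UMIs in LPCAT3-AKO and 9342 in control, and the other macrophages 7948.5 in LPCAT3-AKO and 6292 in control, so a fixed count of 15 was a smaller share of the UMIs in a deep cell. The libraries held 119355147 and 111669076 UMIs in LPCAT3-AKO and control. They shared 58 cell barcodes, of which 4 belonged to control interferon-high macrophages and 0 to LPCAT3-AKO ones. Scrublet, a doublet caller, called 1.22% of the interferon-high macrophages of each library, against 1.63% of LPCAT3-AKO and 1.98% of control macrophages below 15.

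Interferon-high cells made up a smaller share of macrophages in LPCAT3-AKO than in control. They were 246 of 2816 macrophages in LPCAT3-AKO, or 8.74% (7.72 to 9.84%, exact binomial interval), and 493 of 3727 in control, or 13.2% (12.2 to 14.4%), a ratio of 0.660 (0.564 to 0.771). The gap widened toward the top of the range. At 50 or more UMIs there were 17 LPCAT3-AKO and 154 control cells, which gave a ratio of shares of 0.146 (0.0830 to 0.242), and at 100 or more there were 3 and 66 cells. Scored per 10000 UMIs of the cell, 7.39% of LPCAT3-AKO and 15.9% of control macrophages reached 15, a ratio of 0.463. Fibroblasts, called by 10 or more Dcn UMIs, moved the same way: 3.09% of 6601 LPCAT3-AKO and 7.71% of 6329 control fibroblasts carried 15 or more UMIs of the 3 genes. Since each genotype was 1 library, genotype and library cannot be told apart.

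**Figure D1:**
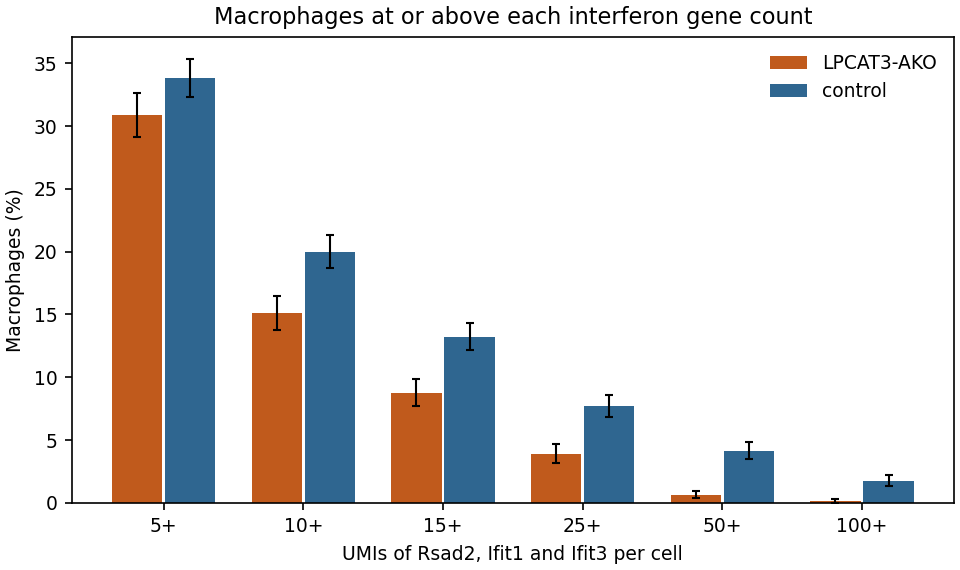
Share of macrophages (%) with at least the given number of summed UMIs of Rsad2, Ifit1 and Ifit3 per cell, in the LPCAT3-AKO library (2816 macrophages) and the control library (3727 macrophages). Bars are shares and whiskers exact 95% binomial intervals of counting error; at 15 or more UMIs the bars stand at 8.74% and 13.2%, and at 50 or more at 0.604% and 4.13%.

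To describe the state, UMIs were summed over the interferon-high and over the other macrophages of a library. A gene was called higher or lower where it reached 20 CPM in the higher group, differed 1.5-fold or more, and had a counting interval of the ratio that excluded 1. The contrast uses the same cells that the 3 genes selected, so it describes the state and tests nothing. Of genes at 20 CPM or more, 190 of 6132 were higher in the LPCAT3-AKO library (3.1%) and 335 of 5999 in the control library (5.58%), while 167 (2.72%) and 359 (5.98%) were lower. Genes called higher in both libraries numbered 158, which was 83.2% of the LPCAT3-AKO and 47.2% of the control calls, and 69 were lower in both, 41.3% and 19.2% of the calls. Log2 ratios below are of CPM + 1. The median log2 ratio over all these genes was -0.00 in LPCAT3-AKO and -0.05 in control.

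Interferon-stimulated genes made up 125 of the 190 higher genes in LPCAT3-AKO and 143 of the 335 in control. They come from lists of 287 interferon-related genes, 268 of them in the files, of which 221 in LPCAT3-AKO and 224 in control reached 20 CPM, so that 56.6% and 63.8% of these were higher, and 119 genes were higher in both libraries, 95.2% of the LPCAT3-AKO and 83.2% of the control calls. Of the same genes, 3 were lower in LPCAT3-AKO (1.36%) and 1 in control (0.446%). Among antiviral effectors, a list that holds the 3 genes of the rule, 49 of 64 were higher in LPCAT3-AKO and 52 of 64 in control, and 1, Ifi27, was lower in both. Their summed level was 26720.2 CPM in interferon-high against 15893 CPM in other macrophages of the LPCAT3-AKO library, and 31846 against 15043 CPM in the control library. Cmpk2, a mitochondrial nucleotide kinase, was read at 136 against 38.4 CPM in LPCAT3-AKO (3.55-fold, 3.17 to 3.98) and at 575 against 49.3 CPM in control (11.7-fold, 10.9 to 12.5). Isg15, a ubiquitin-like protein that is attached to other proteins, had 711 against 224 CPM in LPCAT3-AKO and 1115 against 243 CPM in control. Ifit2, an RNA-binding relative of the rule genes, had 346 against 56.8 CPM and 667 against 62.2 CPM. For each of these 3 genes the ratio was larger in control, and the counting intervals of the ratios did not overlap. Control members also carried more UMIs of the rule genes, with a median of 30 against 23 in LPCAT3-AKO. Among members with 15 to 24 UMIs, Cmpk2 stood at 100.3 CPM in LPCAT3-AKO and 162 CPM in control. Isg15 stood there at 633 and 754 CPM, and Ifit2 at 232 and 284 CPM. The part of the unequal interferon counts in the larger control ratios was not tested. Ifit3b and Ifit1bl1 were higher too, with ratios of 4.43 and 7.18 in LPCAT3-AKO and 12.3 and 40.4 in control, but they have near-identical neighbours among which reads may be split.

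GTPases that attack the vacuoles of intracellular microbes were mostly higher. Of the guanylate-binding and immunity-related GTPases at 20 CPM, 11 of 12 were higher in LPCAT3-AKO and 14 of 14 in control, with median log2 ratios of 1.04 and 1.42. Iigp1 stood at 331 against 89.7 CPM in LPCAT3-AKO and at 676 against 138 CPM in control, and Igtp at 88.6 against 32.6 CPM and 149.7 against 42.3 CPM. PARP and TRIM family genes were higher for 15 of 17 members in LPCAT3-AKO and 13 of 16 in control.

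Receptors and ligands did not follow. None of the 8 receptor and kinase genes at 20 CPM was higher in either library. Ifnar1 was read at 69.2 CPM in interferon-high and 75.9 CPM in other macrophages of LPCAT3-AKO, and at 70.2 against 74.0 CPM in control, with ratios of 0.912 (0.793 to 1.04) and 0.948 (0.841 to 1.07). Ifngr1, a chain of the interferon-gamma receptor, stood at 212 against 238 CPM in LPCAT3-AKO and was lower in control, at 155 against 236 CPM. Interferon transcripts were rare in these cells and in the other macrophages. An Ifnb1 UMI was found in 1.22% of interferon-high and 0.934% of other macrophages in LPCAT3-AKO, and in 0.811% and 0.989% in control. Ifnb1 had 3 UMIs in 246 LPCAT3-AKO and 4 UMIs in 493 control interferon-high macrophages, against 38 and 52 UMIs in the other macrophages, or 0.869 and 0.835 CPM against 1.62 and 2.28 CPM. The numbered Ifna genes (Ifna1 to Ifna16) had no UMI in either library, Ifnab had 1 UMI in LPCAT3-AKO and 2 in control, with 0 in the interferon-high cells of each, and Ifng had 0 UMIs in LPCAT3-AKO and 2 in control interferon-high macrophages. A count of 0 allows up to 0.869 CPM in the LPCAT3-AKO and 0.626 CPM in the control cells.

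Downstream of the receptor, the transcription factors differed from one another. Irf7, which amplifies interferon production, had 458 against 211 CPM in LPCAT3-AKO and 405 against 155 CPM in control. Stat2, which carries the signal to the nucleus, had 241 against 109 CPM in LPCAT3-AKO and 253 against 102 CPM in control. Irf9, its partner, stood at 92.1 against 85.8 CPM and 99.2 against 84.6 CPM, under the 1.5-fold size in both libraries, as did Irf1, Irf2 and Irf3. Sensors of viral RNA were higher in both, with Ifih1 (MDA5) at 218 against 100.2 CPM in LPCAT3-AKO and 363 against 118 CPM in control, and Tlr3 at 34.8 against 12.5 CPM and 60.3 against 17.5 CPM. Cgas, the cytosolic DNA sensor, stood at 53.3 against 36.7 CPM in LPCAT3-AKO and was called in control alone, at 68.3 against 34.3 CPM. Whether the libraries differed in these ratios was not tested.

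Brakes on the pathway were split. Usp18, which removes ISG15 and blocks IFNAR2, had 129 against 42.6 CPM in LPCAT3-AKO and 249 against 44.6 CPM in control. Socs1, an inhibitor of JAK kinases, stood at 16.2 against 13.05 CPM in LPCAT3-AKO and was called in control alone, at 39.9 against 15.2 CPM. Socs3, an inhibitor of IL-6 family signalling, was lower in LPCAT3-AKO (51.6 against 108 CPM) and stood at 84.1 against 126 CPM in control.

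Antigen presentation separated by class. Among the 23 measured class I genes, 4 were higher in each library, including H2-T22 (194 against 102 CPM in LPCAT3-AKO, 173 against 94.3 CPM in control) and the peptide transporter gene Tap1 (186 against 110.1 CPM and 196 against 111 CPM). The classical class I genes H2-K1 and H2-D1 stayed under the 1.5-fold size. Class II genes lay on the other side: 5 of 8 at 20 CPM were lower in LPCAT3-AKO and 4 of 8 in control, none was higher, and their median log2 ratios were -0.71 and -0.59. H2-Ab1 was read at 1436 against 2496 CPM in LPCAT3-AKO and at 1855 against 2817 CPM in control. Ciita, the master activator of class II transcription, was at 26.9 against 53.7 CPM in LPCAT3-AKO (0.501, 0.402 to 0.619) and at 16.7 against 49.5 CPM in control (0.337, 0.266 to 0.424). In the control library Ciita declined over the bins of rising interferon count, with 70.1 CPM at 0 UMIs of the 3 genes, 36.8 CPM at 5 to 14, 20.02 CPM at 25 to 49 and 6.80 CPM at 50 or more. In the same bins control H2-Ab1 stood at 3791, 2125, 2156 and 1709 CPM, so most of its fall lay below the threshold. The part of the mix of macrophage types in the class II differences was not tested.

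Beyond the interferon lists, 65 of 5911 genes were higher in LPCAT3-AKO (1.1%) and 192 of 5775 in control (3.32%), with 39 in both; 164 (2.77%) and 358 (6.2%) were lower, with 68 in both. The shared genes were 60% and 20.3% of the higher calls and 41.5% and 19.0% of the lower calls in LPCAT3-AKO and control. The lists are not complete, so absence from them does not show that a gene is not interferon-induced. For some genes the UMIs came from very few cells. After leaving out, for each gene, the cell with most of its UMIs in each group, 34 of the 39 and 63 of the 68 genes were still called in both libraries.

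Of the 10 genes at 20 CPM on the chemokine list outside the interferon lists, 1 was higher and 2 were lower in LPCAT3-AKO, and 4 were higher and 1 was lower in control, with median log2 ratios of 0.04 and 0.26. Ccl12, a CCR2 ligand that is on the list of interferon-induced chemokines instead, had 235 against 104 CPM in LPCAT3-AKO and 613 against 115 CPM in control. Ccl7, another CCR2 ligand, had 917 against 597 CPM in LPCAT3-AKO (1.54-fold, 1.48 to 1.60) and 2274 against 802 CPM in control (2.83-fold, 2.77 to 2.90). Without its highest cell in each group, Ccl7 was no longer called in LPCAT3-AKO, at 885 against 592 CPM. It was still called in control, at 2251 against 798 CPM. Ccl2, the main CCR2 ligand, had 955 against 890.0 CPM in LPCAT3-AKO and passed the rule in control only, at 1867 against 963 CPM. Ccl4 and Ccl24 were likewise called in control only, with ratios of 1.02 and 0.979 in LPCAT3-AKO and of 1.87 and 1.60 in control. Ccl17 and Ccl22 had control ratios of 6.09 and 6.01, but 1 cell gave 93.9% and 78.3% of their UMIs in the interferon-high group, and without that cell neither was called. Cxcl12, which retains cells bearing CXCR4, went the other way, at 30.4 against 55.1 CPM in LPCAT3-AKO and 15.7 against 54.1 CPM in control.

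The next genes, none of them on the interferon lists, were called higher in both libraries; Pnp and Keap1 were picked after their values were seen. Ccnd1, which encodes cyclin D1, had 179 against 95.4 CPM in LPCAT3-AKO (1.87-fold, 1.71 to 2.05) and 294 against 102 CPM in control (2.89-fold, 2.70 to 3.09). Proliferation genes did not accompany it: 0 of 19 at 20 CPM were higher and 6 lower in LPCAT3-AKO, and 0 of 11 were higher and 5 lower in control. Mki67 stood at 91.2 against 139 CPM in LPCAT3-AKO and 23.4 against 46.1 CPM in control. Pnp, a purine salvage enzyme, had 387 against 254 CPM and 704 against 293 CPM. Keap1, the sensor that holds the oxidative stress factor NRF2 in check, had 136 against 76.1 CPM and 149 against 76.2 CPM. Flrt2 and Scimp, a membrane adhesion protein gene and an adaptor gene of antigen-presenting cells, had ratios of 1.75 and 1.85 in LPCAT3-AKO and of 3.45 and 2.66 in control. Csprs reached 51.3 against 20.6 CPM and 54.1 against 20.5 CPM, and it belongs to a repeated gene group in which reads may be split.

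Some higher genes encode surface proteins that are on the interferon lists. Fcgr1, the high-affinity IgG receptor, was at 241 against 136 CPM in LPCAT3-AKO and 382 against 144 CPM in control, and Fcgr4 at 136 against 67.1 CPM and 121 against 56.9 CPM. Siglec1, a sialic acid receptor of resident macrophages, had 187 against 112 CPM and 119 against 78.7 CPM, Ly6a 586 against 362 CPM and 549 against 307 CPM, and Plac8, which is on the same lists, 859 against 381 CPM and 779 against 288 CPM. Outside the interferon lists, Bst1, an ectoenzyme that consumes NAD, had 152 against 81.2 CPM and 146 against 87.6 CPM. Il10, an anti-inflammatory cytokine, had 115 against 62.4 CPM and 178 against 98.7 CPM, ratios of 1.84 (1.64 to 2.06) and 1.80 (1.66 to 1.95). Il10 UMIs were found in 67 of the LPCAT3-AKO and 173 of the control interferon-high macrophages, with 6.31% and 4.34% of them in the highest cell. Abcg1, a sterol exporter, was higher at 129 against 79.3 CPM and 108 against 61.5 CPM, the 1 higher gene of 11 in the cholesterol efflux list in each library.

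**Figure D2:**
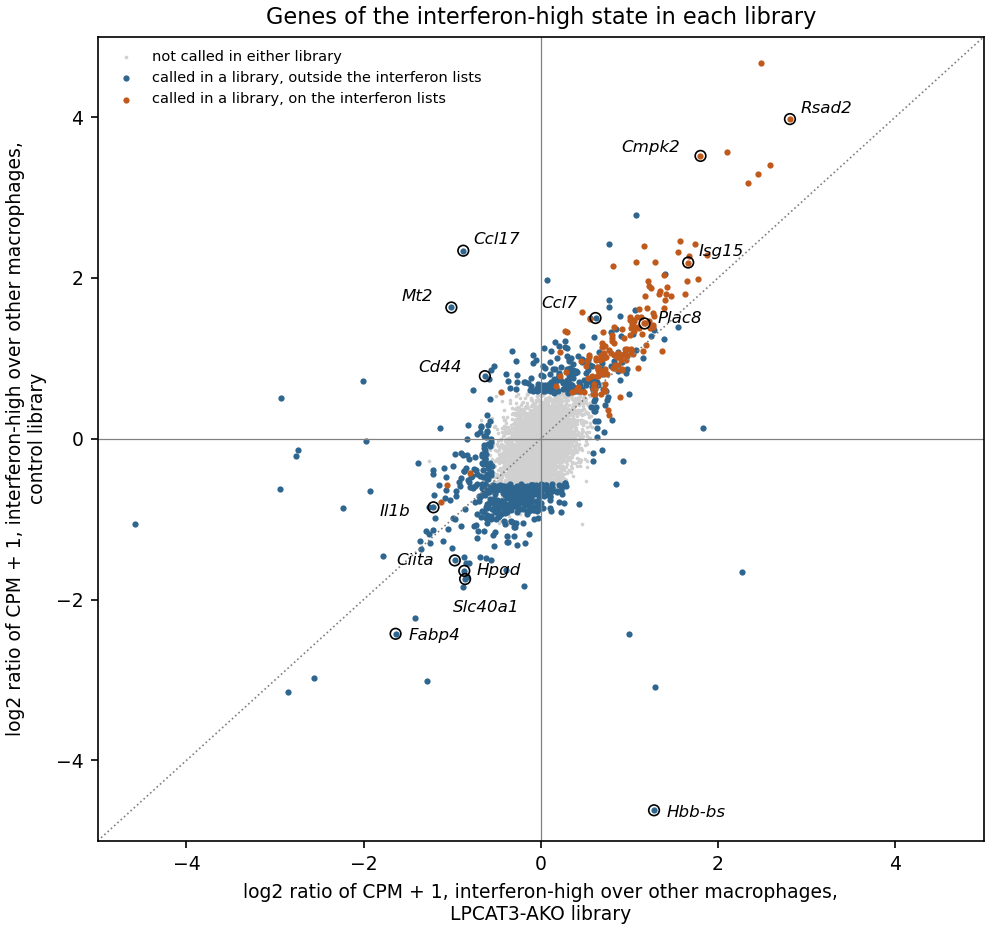
Log2 ratio of CPM + 1 in interferon-high over other macrophages for each gene at 20 CPM in a group, LPCAT3-AKO library on the x axis and control library on the y axis; grey points were called in neither library, and coloured points in at least 1 of them. Rsad2 lies at 2.81 and 3.98, Ccl7 at 0.62 and 1.502, Fabp4 at -1.64 and -2.43, and Mt2 at -1.01 and 1.63.

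Il1b and Il6, cytokine genes of the NF-kB list, were lower in both libraries. Il1b, the pro-inflammatory cytokine IL-1 beta, had 263 against 611 CPM in LPCAT3-AKO (0.431, 0.403 to 0.461) and 362 against 654 CPM in control (0.553, 0.526 to 0.581). Il6 had 45.8 against 106 CPM and 52.0 against 104 CPM. Over the whole list, 1 of 22 genes was higher and 5 lower in LPCAT3-AKO, and 2 were higher and 2 lower in control, with median log2 ratios of -0.19 and -0.14. Il10 was the list's higher gene in LPCAT3-AKO, and Il10 and Cd40 were those in control. Without its highest cell in each group, Cd40 was no longer called in control, at 54.6 against 36.7 CPM. Tnf, at 189 against 198 CPM and 306 against 238 CPM, was called in neither. Il1b is also on the list of Lyve1-negative macrophage genes, as are Fn1 and Cd209a, both lower in both libraries. Of 9 genes at 20 CPM on that list, 0 were higher and 3 lower in LPCAT3-AKO. In control 1, Cd226, was higher and 4 were lower, and the median log2 ratios were -0.14 and -0.49. The part of the mix of macrophage types in these differences was not tested.

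The lower genes called in both libraries included Hpgd, Ptger4, Slc40a1, Fabp4 and Angptl4. Hpgd, which inactivates prostaglandin E2, had 50.4 against 92.5 CPM in LPCAT3-AKO (0.545, 0.464 to 0.636) and 25.3 against 81.0 CPM in control (0.312, 0.257 to 0.375). Ptger4, a receptor for the same prostaglandin, had 15.9 against 36.7 CPM and 28.8 against 43.2 CPM. Slc40a1, the iron exporter ferroportin, had 32.7 against 60.0 CPM and 10.0 against 35.9 CPM. With the threshold set per 10000 UMIs, Slc40a1 was no longer called in LPCAT3-AKO, at 40.6 against 57.8 CPM. It was the 1 lower gene of 9 at 20 CPM on the iron and haem list in each library, whose median log2 ratios were 0.07 and 0.10. Fabp4, a fatty acid carrier, had 77.6 against 244 CPM and 61.0 against 332 CPM, and Angptl4, an inhibitor of lipoprotein lipase, 12.5 against 33.5 CPM and 12.9 against 32.8 CPM. By interferon count, LPCAT3-AKO Fabp4 stood at 166 CPM (0 UMIs), 239 (1 to 4), 323 (5 to 14) and 107 (15 to 24). In control the Fabp4 values were 123, 490, 293 and 48.5 CPM, so it did not fall steadily in either library. Kept cells that were neither macrophages nor fibroblasts had far more Fabp4, at 4639.7 CPM in LPCAT3-AKO and 5265 CPM in control, and the 95 LPCAT3-AKO macrophages just below the threshold had 1375 CPM; the part of other cells' RNA in the Fabp4 difference was not tested. These genes were called in both libraries also without the highest cell of each. Spp1 was called lower in both, but 1 control cell below 15 held 91.2% of that group's UMIs, and without the highest cells it was called in neither.

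Other genes called lower in both libraries were Fn1, Vcam1, Cd93, Igfbp7, Timp3 and Col4a1, of which Vcam1 and Cd93 were picked after their values were seen. Fn1, fibronectin, had 449 against 680.0 CPM in LPCAT3-AKO and 330 against 596 CPM in control, Vcam1 37.1 against 92.2 CPM and 69.7 against 155 CPM, and Cd93 33.0 against 80.8 CPM and 31.3 against 72.2 CPM. Vcam1 and Cd93 were also read at 0, 1 to 4, 5 to 14 and 15 to 24 UMIs of the 3 rule genes. Vcam1 stood at 170.7, 77.7, 36.4 and 34.8 CPM in LPCAT3-AKO, and at 307.1, 118.3, 71.2 and 71.3 CPM in control. Cd93 stood at 127.4, 75.98, 42.9 and 34.3 CPM in LPCAT3-AKO, and at 113.5, 66.9, 42.6 and 32.2 CPM in control. Most of the fall of Vcam1 and Cd93 thus lay below the threshold. Igfbp7, Timp3 and Col4a1, are expressed by blood vessel cells, and Igfbp7 stood at 11.01 against 31.2 CPM and 8.98 against 45.9 CPM. Endothelial markers moved with them: the 10 listed summed to 11.9 CPM in interferon-high against 61.0 CPM in other macrophages of LPCAT3-AKO, and to 12.1 against 83.9 CPM in control, with 3 and 1 of the 10 at 0 UMIs in the interferon-high cells. Epithelial markers summed to 79.4 against 259 CPM and 183 against 247 CPM, with 1 of 10 at 0 in each. Fibroblast markers summed to 850.3 against 1004 CPM and 919 against 1056 CPM, with 0 of 10 at 0. The part of these other cells' RNA in the lower genes was not tested.

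Of 22 resident macrophage genes at 20 CPM, 1 was higher and 0 lower in LPCAT3-AKO, and 1 was higher and 2 were lower in control, with median log2 ratios of 0.11 and -0.06. Cd163, the haemoglobin scavenger receptor, and Stab1, a scavenger receptor, stood at 733 against 951 CPM and 272 against 350 CPM in LPCAT3-AKO, under the 1.5-fold size. They were called lower in control, at 683 against 1064 CPM and 222 against 354 CPM. With the threshold set per 10000 UMIs, Stab1 was no longer called in control, at 246 against 349 CPM. Timd4, a receptor for dying cells, was called higher in LPCAT3-AKO alone, at 255 against 166 CPM, with 180.4 against 155 CPM in control. Lipid-associated macrophage genes were lower for 7 of 15 members in LPCAT3-AKO and 2 of 14 in control. Trem2, a lipid receptor, was instead higher in LPCAT3-AKO, at 119 against 77.5 CPM, and stood at 137 against 108 CPM in control. Oxidative phosphorylation genes numbered 33, of which 0 in LPCAT3-AKO and 1 in control, Cycs, were higher, and cholesterol synthesis genes gave no call in either library. Phospholipid remodelling genes, the class to which Lpcat3 belongs, gave 1 lower gene of 16 in each library, Agpat4 in LPCAT3-AKO and Chkb in control.

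**Figure D3:**
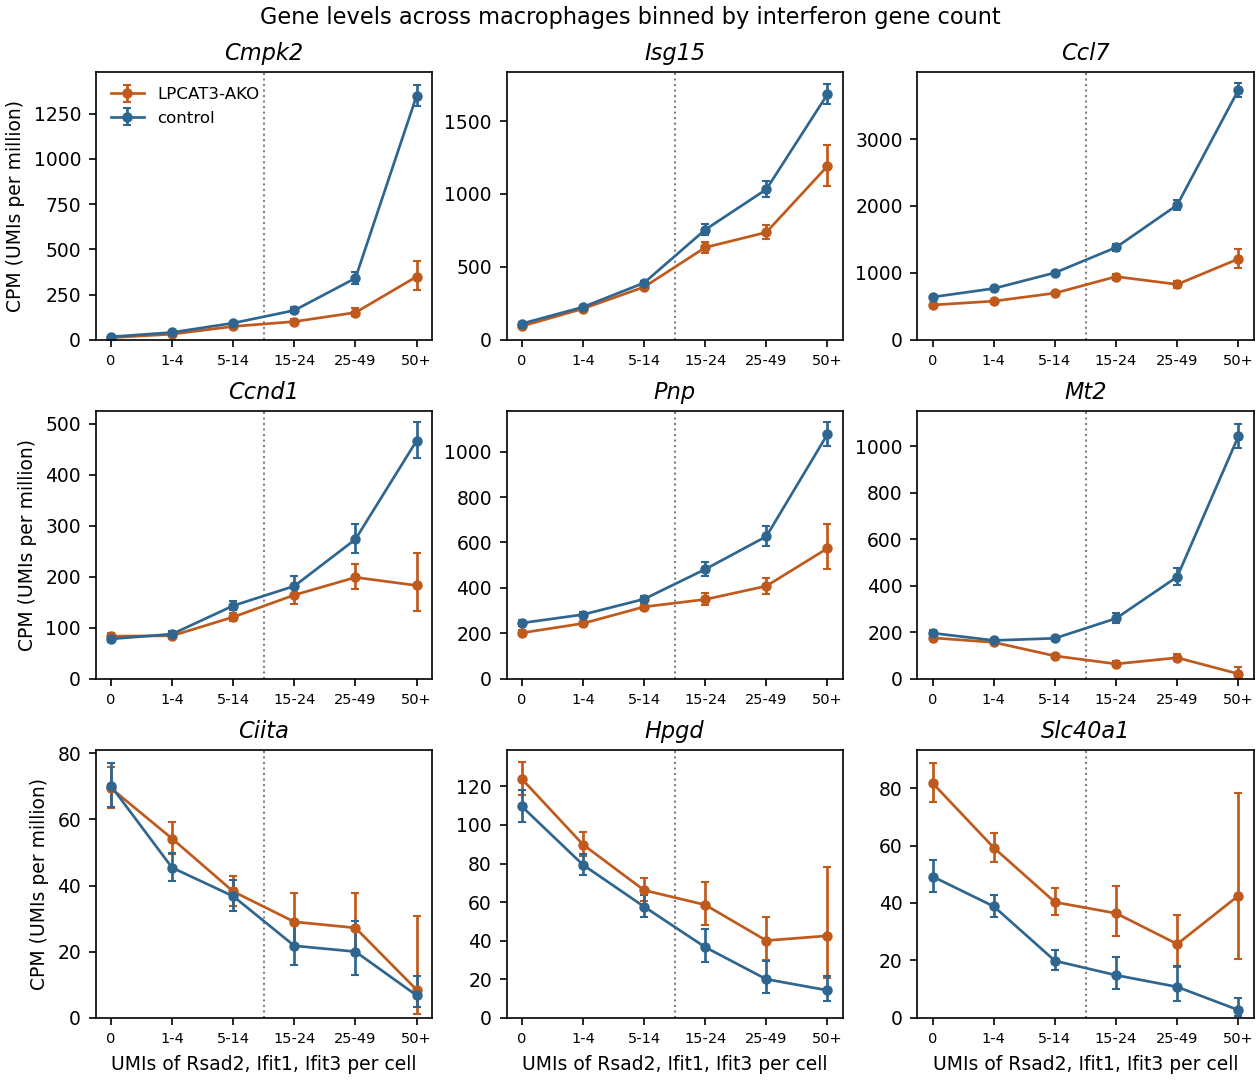
Level (CPM) of 9 genes in macrophages binned by summed UMIs of Rsad2, Ifit1 and Ifit3 per cell, LPCAT3-AKO and control libraries; points are sums over the cells of a bin, whiskers 95% Poisson counting intervals, and the dotted line marks the threshold of 15. The top bin holds 17 LPCAT3-AKO and 154 control cells; control Ccl7 reaches 3732 CPM there and control Slc40a1 2.72 CPM.

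Levels were also read in 6 bins of the interferon count, 0, 1 to 4, 5 to 14, 15 to 24, 25 to 49 and 50 or more UMIs of the 3 genes. Ccl7 was at 519, 577, 697, 943, 828 and 1208 CPM in LPCAT3-AKO and at 639, 766, 1002, 1380.2, 2014 and 3732 CPM in control, so it was higher in each successive control bin and turned back once in LPCAT3-AKO. Ccnd1 was at 83.5, 84.3, 121, 164, 199 and 183 CPM in LPCAT3-AKO and at 78.1, 87.6, 143, 182, 273 and 466 CPM in control. Hpgd was at 124, 89.9, 66.2, 58.6, 40.1 and 42.5 CPM in LPCAT3-AKO and at 109.6, 79.3, 57.7, 36.6, 20.02 and 14.3 CPM in control. Both genes turned back in the top LPCAT3-AKO bin. Bins also differed in depth, with medians of 6047 UMIs at 0 and 11116 at 50 or more in LPCAT3-AKO, and 4858.5 and 8997.5 in control. The top LPCAT3-AKO bin held 17 cells, so its values rest on few cells.

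At equal depth the genes kept their order. Of cells thinned to 4000 UMIs, 57.0% of LPCAT3-AKO interferon-high macrophages (50.5 to 63.3%) had an Fcgr1 UMI, against 37.3% of the other macrophages and 1.90% of fibroblasts. In control the shares were 70.8% (66.4 to 74.9%), 38.3% and 2.33%. Ciita was found in 12.8% against 17.9% of LPCAT3-AKO macrophages, with overlapping intervals, and in 4.95% against 16.2% of control macrophages, while fibroblasts gave 1.04% and 0.867%. Ccnd1 was found in 37.6% against 21.4% in LPCAT3-AKO and 47.3% against 23.1% in control, with 13.1% and 12.5% of fibroblasts. Plac8 and Pnp were common in fibroblasts too. Plac8 was found in 65.0% of LPCAT3-AKO and 79.0% of control fibroblasts, against 77.7% and 77.6% of interferon-high macrophages. For Pnp the shares were 73.0% and 83.1% of fibroblasts, against 73.1% and 85.2%. Without thinning the Fcgr1 shares were 86.2% against 52.5% in LPCAT3-AKO and 88.2% against 49.4% in control. Thinning left out 4 interferon-high and 345 other macrophages of LPCAT3-AKO and 28 and 710 of control for having fewer UMIs, and fibroblast medians were 9677 UMIs in LPCAT3-AKO and 9819 in control.

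**Figure D4:**
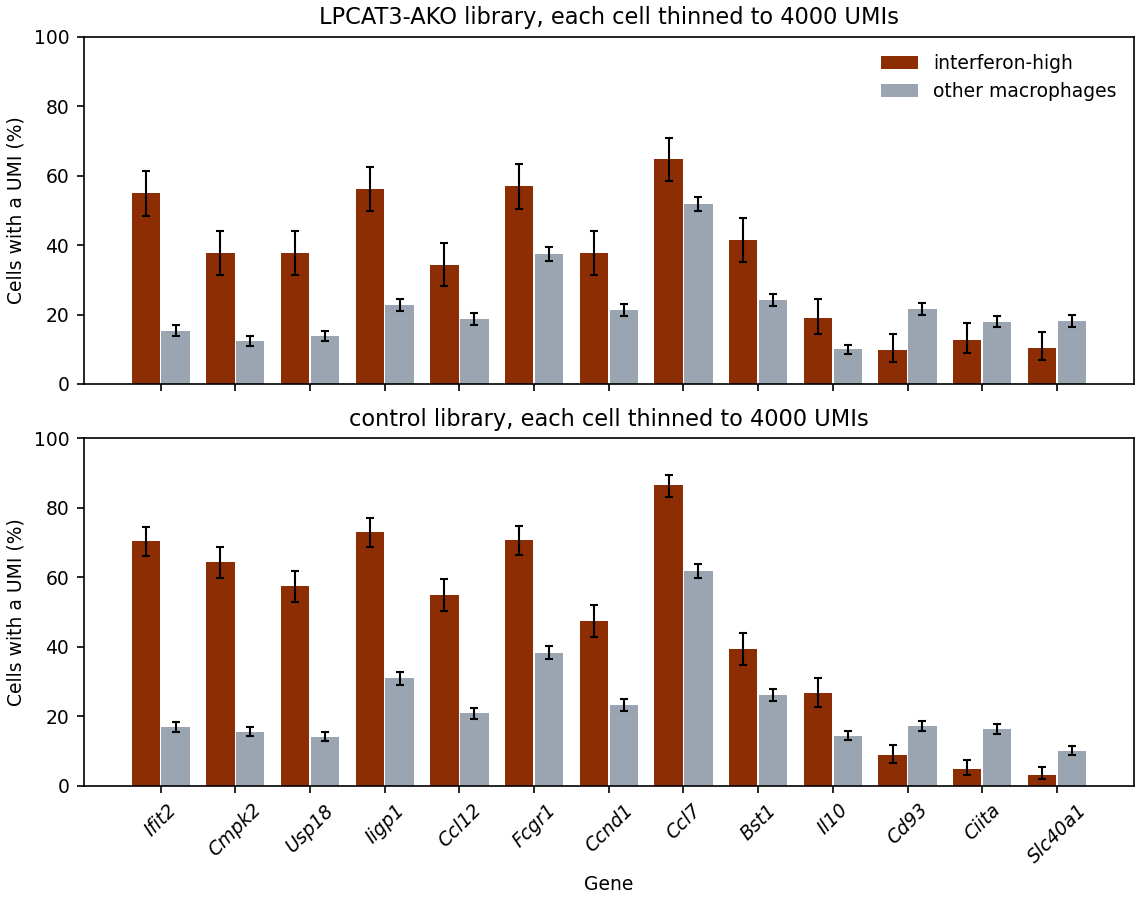
Share of macrophages (%) with a UMI of each gene after every cell was thinned to 4000 UMIs, interferon-high and other macrophages, LPCAT3-AKO library above and control library below; whiskers are exact 95% binomial intervals of counting error. Fcgr1 bars stand at 57.0% and 37.3% in LPCAT3-AKO and at 70.8% and 38.3% in control.

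Interferon-high macrophages of LPCAT3-AKO and of control were also set against each other. Of 6049 genes, 533 were higher in LPCAT3-AKO (8.81%) and 298 lower (4.93%). Among the macrophages below 15 the same rule called 86 higher (1.42%) and 23 lower (0.379%) of 6067. The groups were of unequal size, so these percentages are not directly comparable. Interferon-high sums held 3452887 UMIs in LPCAT3-AKO and 4789500 in control, and those below 15 held 23448732 and 22829582. How far group size set the number of calls was not tested. Since control cells had higher interferon counts, members with 15 to 49 UMIs were compared as well, 229 in LPCAT3-AKO and 339 in control, and 393 genes were higher (6.48%) and 200 lower (3.3%) of 6063. Cmpk2 was at 136 CPM in LPCAT3-AKO and 575 CPM in control members, and at 121 and 232 CPM in those with 15 to 49 UMIs. Ccl7 was at 917 and 2274 CPM, and at 896 and 1628 CPM with 15 to 49 UMIs. Gdpd3, a lysophospholipase D gene, was at 5.21 CPM in LPCAT3-AKO and 58.5 CPM in control interferon-high macrophages, and at 8.10 and 75.0 CPM below 15, so this gap was not limited to the state.

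Top2a, a topoisomerase gene of dividing cells, and Mt2 were among the genes called between the libraries. Top2a was at 97.6 CPM in LPCAT3-AKO and 27.1 CPM in control interferon-high macrophages, and at 146 and 41.9 CPM below 15. With 3 or more UMIs of 5 division genes as the mark of a dividing cell, 20.3% of LPCAT3-AKO and 5.27% of control interferon-high macrophages were dividing, against 16.3% and 6.71% below 15, in cells of unequal depth. Mt2, a metallothionein that binds zinc, was at 71.2 CPM in LPCAT3-AKO and 549 CPM in control interferon-high macrophages, and at 144 and 176 CPM below 15. With 15 to 49 UMIs of the 3 genes it was at 74.9 CPM in LPCAT3-AKO and 330.0 CPM in control. Across the interferon bins Mt2 was at 21.3 CPM in LPCAT3-AKO and 1043 CPM in control at 50 or more. Genotype, library and depth cannot be told apart in these differences.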

How the data were processed

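The deposited matrices of both libraries held raw UMI counts per gene and barcode for 32285 genes, made by the authors before deposit; the tools were Cell Ranger 6.1.2 and Seurat 4.10 with genome build mm10, per the submitters' processing notes. Symbols shared by several identifiers (40 entries) were given the identifier as a suffix. Barcodes numbered 12806 in LPCAT3-AKO and 13831 in control, of which 11664 and 12426 passed the filters on genes and mitochondrial UMIs, with medians of 8867 and 8366.5 UMIs. Doublets were not removed from the main values; Scrublet, run through scanpy 1.11.5, served as an alternative. Python 3.11.15, numpy 2.4.6, scipy 1.17.1, pandas 2.3.3 and matplotlib 3.10.9 were used.

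UMIs were summed per group and expressed as CPM. Ratios carry exact binomial intervals of the pair of sums, shares Clopper-Pearson intervals, and levels Poisson intervals, all at 95%; PCR duplicates were collapsed by UMI, and the intervals cover counting error only. A count of 0 was read as up to 3 counts. Log2 ratios used a pseudocount of 1 CPM. The calling script was tested on simulated data. The simulation held counting error only, without spread between cells, so it did not cover genes carried by single cells. Cells are not replicates, and with 1 library per genotype no test of genotype was possible.

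The members and the 46 gene lists were chosen with earlier results of these data known. Named genes were the 12 highest on the interferon lists in the control library, the 16 highest and 12 lowest outside them, up to 5 called genes of each other list, and every ligand or receptor with a UMI; mitochondrial, ribosomal protein, haemoglobin, immunoglobulin, sex-linked and unnamed predicted genes were not eligible. Other genes named for being called in both libraries, for opposite calls or for a gap between the libraries were chosen after their values were seen. Alternatives comprised 19 planned settings and 4 chosen after seeing the data. Promoter and protein sequences were not used here.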

Additional observations from a re-analysis of the deposited data

Results flagged for a closer look

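Genes called in opposite directions in the LPCAT3-AKO and control libraries numbered 5, and the difference between the libraries was not tested. Cd44, the hyaluronan receptor, had a log2 ratio of interferon-high over other macrophages of -0.63 in LPCAT3-AKO (116 against 179.9 CPM) and 0.78 in control (287 against 167 CPM). Mt2, a metallothionein, had -1.01 in LPCAT3-AKO (71.2 against 144 CPM) and 1.63 in control (549 against 176 CPM). Without the cell richest in Mt2 in each group, the log2 ratios were -1.07 in LPCAT3-AKO and 1.61 in control.

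The haemoglobin genes made up the rest. Hbb-bs had 1.28 in LPCAT3-AKO and -4.62 in control, Hba-a1 1.29 and -3.09, and Hba-a2 0.99 and -2.43. A single LPCAT3-AKO interferon-high cell held 88.7% of that group's Hbb-bs UMIs, 92.9% of Hba-a1 and 92.7% of Hba-a2. Without the richest cell in each group, Hbb-bs had -0.81 in LPCAT3-AKO, where it was no longer called, and -3.97 in control.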

How the results depend on the processing

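No paired analysis was possible because each genotype had 1 library. The ratio of shares, 0.660 for LPCAT3-AKO over control, was 0.504 at a threshold of 25 UMIs, 0.463 with 15 per 10000 UMIs and 0.493 in cells thinned to 4000 UMIs with a threshold of 6, below 1 each time, and 7 other settings left it within its interval.

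Counts of genes moved with the threshold, the size rule, the range of members and the library, and stayed within 1.5 times in cells thinned to 4000 UMIs, in cells of 6000 to 15000 UMIs and with 15 per 10000 UMIs. Genes higher in LPCAT3-AKO than in control interferon-high macrophages numbered 306 at a threshold of 10 and 915 at 25, and those lower 475 at 25. The LPCAT3-AKO and control members numbered 425 and 746 at 10, and 109 and 286 at 25. In the control library, higher genes numbered 150 with a ratio of 2, 534 with no minimum level, 213 with members of 15 to 49 UMIs, and 190 in LPCAT3-AKO instead. Lower genes numbered 178 at a threshold of 10, 721 at 25, 56 with a ratio of 2, 138 with 50 CPM, 1441 with no minimum, 193 with members of 15 to 49 UMIs, 181 over both libraries summed and 167 in LPCAT3-AKO. Outside the interferon lists, higher genes numbered 292 at 25, 47 with a ratio of 2, 123 with 50 CPM, 376 with no minimum, 89 with 15 to 49 UMIs, 102 over both libraries and 65 in LPCAT3-AKO. Lower genes outside the lists numbered 177 at 10, 719 at 25, 56 with a ratio of 2, 138 with 50 CPM, 1433 with no minimum, 191 with 15 to 49 UMIs, 178 over both and 164 in LPCAT3-AKO.

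Among list medians, 612 values stayed, 84 moved and 8 reversed. Against -0.14, the NF-kB list had 0.055 in Lyve1- or Folr2-bearing macrophages. In LPCAT3-AKO, phospholipid remodelling had 0.029 and complement -0.013, against -0.12 and 0.11 in control. Epithelial markers, at -0.30, had 0.20 at a threshold of 10, 0.44 against cells with 0 to 2 UMIs, 0.16 without dividing cells, 0.055 in cells of 6000 to 15000 UMIs and 0.18 with members of 15 to 49 UMIs.

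Among log2 ratios of single genes, 1546 values stayed, 592 moved and 18 reversed. Ccl17, at 2.34, had -1.01 without the highest Scrublet scores, -0.77 with at most 5% mitochondrial UMIs, -0.93 with Dcn at most 1, -0.975 in cells of 6000 to 15000 UMIs, -0.88 without its highest cell and -0.875 in LPCAT3-AKO. Ccl22 had -1.12 without the highest Scrublet scores. Spp1, at -3.01, had 4.60 at a threshold of 10, 0.0088 without the highest Scrublet scores and 0.11 in cells of 6000 to 15000 UMIs. In LPCAT3-AKO the log2 ratio was 0.0022 for Bnip3, -0.030 for Ccl24, 0.054 for Chkb, 0.0081 for Egr3, -0.77 for Gsr, 0.19 for Lyz1, -1.01 for Mt2 and 0.026 for Pclaf, each opposite in sign to control. Apart from the single-cell shares given above, the cause was not tested.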

Other observations

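Fibroblasts with 15 or more UMIs of Rsad2, Ifit1 and Ifit3 numbered 204 in LPCAT3-AKO and 488 in control and were made up differently from interferon-high macrophages. Ifit1 was the larger of the rule genes there, at 950.2 CPM in LPCAT3-AKO and 1401 CPM in control fibroblasts, with Rsad2 at 436 and 634 CPM. In interferon-high macrophages Rsad2 stood at 1206 CPM in LPCAT3-AKO and 3349 CPM in control, and Ifit1 at 415 and 1149.8 CPM. Mt2 was at 997 against 806 CPM in LPCAT3-AKO fibroblasts above and below 15, and at 1719 against 784 CPM in control fibroblasts.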
